A study of Mus musculus with 3 samples.

Results

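Ly6c1, Ly6c2, Ly6g, Ly6a, Ly6e, Ly6d and Ly6i, 7 genes of the Ly6 family, were followed through single cells of mouse brain and blood and set against antibody gates for the Ly6C and Ly6G proteins on the same cells. The members were the Ly6 genes chosen by name, and all 7 of 7 were found in each of the 3 expression tables, among 17678, 16462 and 16887 genes in brain, naive blood and metastasis-bearing blood and 15904 genes common to the 3. The choice set no limit on a measured value, but was made with earlier results of these data known. The RNA was read by droplet single-cell sequencing of 3' ends together with a pool of 35 antibodies that carry sequence tags (CITE-seq), and 8 samples, each marked with its own hashing antibody, were loaded as 1 pool. The brain samples were 2 CCR2+/- and 2 CCR2-/- suspensions from mice without metastases, prepared from 1 hemisphere each and enriched for immune cells on a percoll gradient. The blood samples, after lysis of red cells, were 1 Het and 1 Hom sample of naive blood and 1 Het and 1 Hom sample of blood from mice with established brain metastases about 2 weeks after E0771 mammary carcinoma cells were injected into the carotid artery. The mice were females of 2 to 3 months, of Cx3cr1+/-, Cx3cr1-/-, CCR2+/- or CCR2-/- genotype. The labels do not say which gene Het and Hom refer to, nor whether the hashed samples of 1 brain genotype came from separate animals, so the spread between them may be technical. Each blood group was 1 sample, and differences between blood samples were therefore not tested.

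Ly6 genes encode small surface proteins held to the membrane by a lipid (GPI) anchor, and several are the antigens of antibodies used to sort mouse blood cells. The Ly6C antigen is encoded by a pair of near-identical neighbours, Ly6c1 and Ly6c2, and divides mouse monocytes into classical cells, which carry much of it, enter tissue through CCR2 and can become macrophages, and patrolling cells, which carry little of it and crawl along the vessel wall. Ly6G is the standard surface marker of mouse neutrophils, Ly6a encodes Sca-1, known from blood stem cells, activated lymphocytes and endothelium, Ly6d marks cells of the B lineage, Ly6e is widely expressed and induced by interferon, and Ly6i is a close relative of the Ly6c pair. In the RefSeq annotation of the mouse GRCm38.p6 assembly, the 7 genes lie within 397 kb of chromosome 15, in the order Ly6d, Ly6e, Ly6i, Ly6a, Ly6c1, Ly6c2 and Ly6g, from position 74762056 to position 75159128.

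The cells were gated by antibody, so the tags that stood for the proteins are shown beside the genes. The lines below give the tag, 5' to 3', of the Ly6C and Ly6G antibodies and of the CD3 and NK1.1 antibodies, whose gates cells of the monocyte clusters also fell into.
Ly6C: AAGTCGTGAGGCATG
Ly6G: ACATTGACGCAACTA
CD3: GTATGTCCGCTCGAT
NK1.1: GTAACATTACTCGTC

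The RefSeq promoter table held windows of 300 bases for 3 members, and these are the members that code for the gated proteins. Each window holds the start of its gene, at position 75048920 for Ly6c1, 75112066 for Ly6c2 and 75155261 for Ly6g. The windows are printed on the strand of the gene, 5' to 3', with the longest run of bases common to all 3 in capitals. Ly6c1 starts in chr15:75048788-75049087 on the minus strand, Ly6c2 in chr15:75111922-75112221 on the minus strand and Ly6g in chr15:75155011-75155310 on the plus strand (GRCm38.p6).
Ly6c1: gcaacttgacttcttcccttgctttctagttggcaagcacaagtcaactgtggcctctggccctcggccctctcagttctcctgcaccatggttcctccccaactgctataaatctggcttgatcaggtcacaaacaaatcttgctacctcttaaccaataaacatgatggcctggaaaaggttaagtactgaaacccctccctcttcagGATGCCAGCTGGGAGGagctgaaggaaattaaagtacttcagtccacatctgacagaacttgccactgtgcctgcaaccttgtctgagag
Ly6c2: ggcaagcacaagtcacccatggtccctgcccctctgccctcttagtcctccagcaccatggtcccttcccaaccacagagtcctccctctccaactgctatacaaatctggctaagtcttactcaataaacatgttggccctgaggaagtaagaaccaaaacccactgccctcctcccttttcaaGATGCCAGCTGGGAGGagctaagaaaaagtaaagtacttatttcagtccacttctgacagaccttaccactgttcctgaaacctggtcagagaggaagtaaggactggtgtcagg
Ly6g: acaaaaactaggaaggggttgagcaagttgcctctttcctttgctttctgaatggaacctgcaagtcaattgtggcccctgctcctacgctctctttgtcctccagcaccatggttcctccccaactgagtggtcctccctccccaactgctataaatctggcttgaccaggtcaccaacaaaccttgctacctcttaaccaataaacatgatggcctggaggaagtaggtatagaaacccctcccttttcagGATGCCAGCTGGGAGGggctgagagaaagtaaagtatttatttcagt
The windows aligned with 208 of 266 bases identical between Ly6c1 and Ly6c2 (78.2%), 213 of 252 between Ly6c1 and Ly6g (84.5%) and 180 of 223 between Ly6c2 and Ly6g (80.7%). The run common to the 3, GATGCCAGCTGGGAGG, began at base 211 of the Ly6c1 window, base 186 of the Ly6c2 window and base 254 of the Ly6g window. It was found, on the strand of the gene, in 7 of 32851 windows of the table (0.0213%), which belong to 4 genes, Ly6a2, Ly6c1, Ly6c2 and Ly6g. Reads of so similar genes can be assigned to the wrong copy, and the levels of Ly6c1, Ly6c2 and Ly6g are uncertain to that extent.

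The 16328 deposited cells held 13757 distinct barcodes, since a barcode can stand in several tables, and 11356 cells had a barcode in 1 table. Of all cells, 11063 had a barcode in 1 table only and at least 0.5 of their hashtag counts from that table's own hashtags, and these clear cells were analysed: 675 to 1037 in each brain sample and 1716 to 2074 in each blood sample. No doublet caller was run on them, and a pair of cells from 1 sample shares its hashtag, so such doublets may remain. Median depth was 6189 to 7393.5 UMIs per cell in the brain samples and 3928.5 to 4709 in the blood samples. A level is the number of depth-corrected counts of a gene per 10000 such counts of the same cells, and its interval is an exact Poisson interval at 95%, which covers counting error only. Clusters are those of the authors, named here by cell type markers, and a name such as neutrophil stands for a neutrophil-like cluster. Cluster 3 of naive blood and cluster 2 of metastasis-bearing blood held markers of both monocyte classes and are called the monocyte clusters. Cluster 3 of the brain held markers of border macrophages and of both monocyte classes and stayed unnamed. Cd209a, a dendritic cell marker, was also among its leading genes. Cluster 4 of the brain and cluster 2 of naive blood, which mix T and NK cells, stayed unnamed as well. The largest cluster of the brain and cluster 4 of each blood table held little RNA and were not named. Clusters with fewer than 20 clear cells in all, 2 in each blood table, are left out of the account. The authors clustered on all genes, so levels by cluster are descriptions and carry no test.

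Each member had its own place among the clusters (the map of levels by cluster). Ly6c2 led in the monocytes of blood, Ly6c1 in brain endothelium, Ly6g in neutrophils, Ly6d in B cells and Ly6i in the monocytes of naive blood, while Ly6a was shared by endothelium and, at a lower level, B and T cells, and Ly6e was present in nearly every cell type. In the brain, Ly6e ran from 2.64 in neutrophils to 21.1 in B cells, with 7.66 in microglia, and was at 0 in mural cells and at 0.40 in the choroid plexus. Microglia, the resident macrophages of the brain, held Ly6c2 at 0.06, Ly6c1 at 0.04 and Ly6a at 0.19, and Ly6g was not found in the 1232 clear cells of that cluster.

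**Figure D1:**
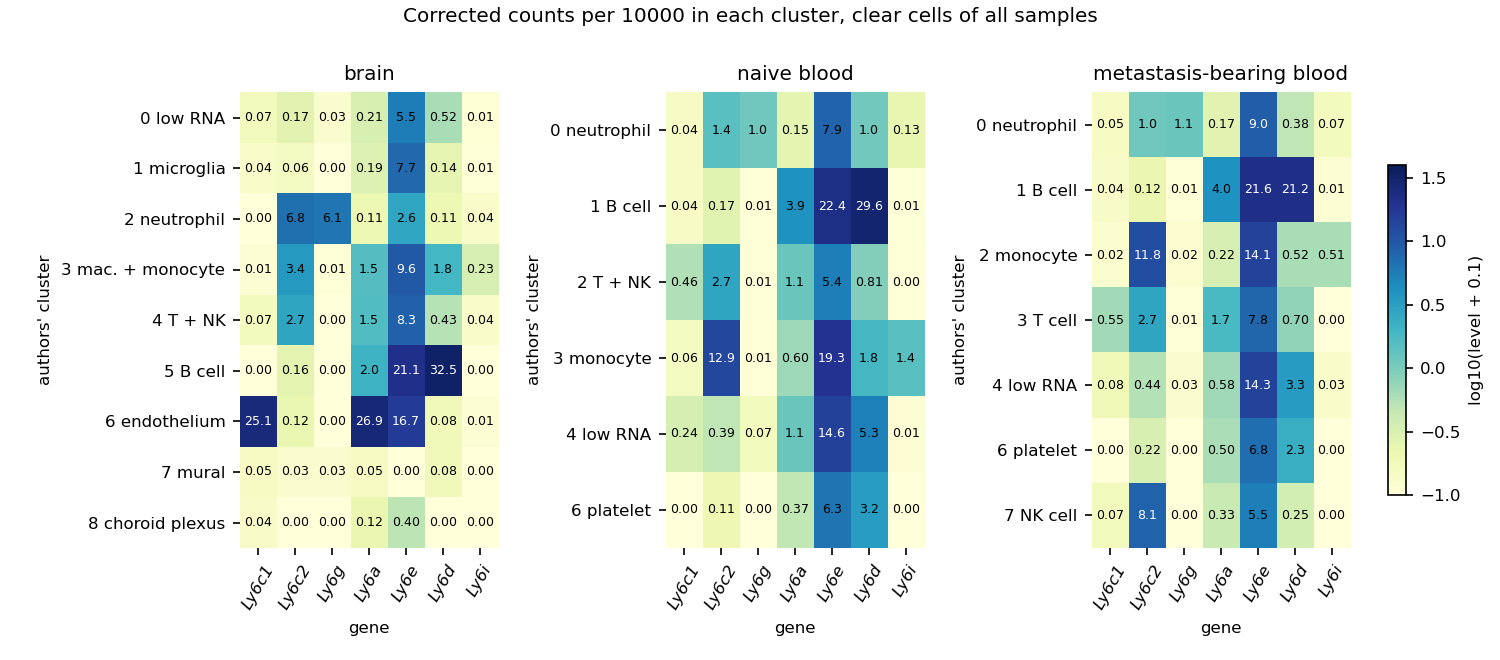
Level of the 7 Ly6 genes (columns) in each authors' cluster (rows) of the 3 tables, clear cells of all samples together; the number in each field is the level in corrected counts per 10000 and the colour is log10 of the level + 0.1. Ly6c1 reaches 25.1 in brain endothelium and no more than 0.55 in any cluster of blood, while Ly6c2 reaches 12.9 and 11.8 in the monocyte clusters of blood.

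Ly6c2 divided the Ly6C-high from the Ly6C-low gate, but did not set the Ly6C+Ly6G+ gate of blood neutrophils apart from the Ly6C-low gate. In naive blood the Ly6C-high gate held Ly6c2 at 20.3 in the Het sample (18.9 to 21.8, 77 cells) and 20.02 in the Hom sample (110 cells), and the Ly6C-low gate held 0.968 (40 cells) and 1.19 (91 cells). In metastasis-bearing blood the Ly6C-high gate was at 14.9 in the Het sample (58 cells) and 14.2 in the Hom sample (420 cells), and the Ly6C-low gate at 0.706 (49 cells) and 1.60 (197 cells). The Ly6C-high gate was above the Ly6C-low gate in 4 of 4 blood samples, with no overlap of levels between the gates. The Ly6C+Ly6G+ gate, also positive for the antibody, held Ly6c2 at 1.55, 1.12, 1.30 and 0.922 in naive Het, naive Hom, metastasis Het and metastasis Hom blood, within the range of the Ly6C-low gates. The log2 ratio of Ly6c2 between the gates was 4.31 (3.72 to 5.15) in naive Het, 4.04 (3.67 to 4.50) in naive Hom, 4.31 (3.64 to 5.29) in metastasis Het and 3.13 (2.90 to 3.40) in metastasis Hom blood.

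The gates of the brain held few cells and showed the same order. Ly6c2 in the Ly6C-high gate was at 21.2 and 23.1 in the CCR2+/- samples (7 cells each) and at 6.42 (3 cells) and 15.5 (4 cells) in the CCR2-/- samples. In the Ly6C-low gate it was at 0 and 0.204 in the CCR2+/- samples (33 and 60 cells) and at 0.363 and 1.16 in the CCR2-/- samples (19 and 28 cells). Ly6c2 was therefore at least 168-fold higher in the Ly6C-high gate of the first CCR2+/- sample, taking 3 counts as the floor of the Ly6C-low gate, and higher by 6.69, 3.97 and 3.71 on the log2 scale in the second CCR2+/- and both CCR2-/- samples. The mean log2 ratio of Ly6c2 over the 4 samples was 5.44 with the first sample at its bound, and 5.84 ± 2.49 (SD, n = 4) with a pseudocount in its place. The design asked for 10 cells in each gate and sample, which the Ly6C-high gate missed, so no test was run, and a sign-flip test over 4 samples could not have gone below p = 0.125 (exact, two-sided). The Ly6C-high cells of the CCR2+/- samples lay mostly in cluster 3, 6 of 7 and 7 of 7. In the CCR2-/- samples 2 of 3 and 2 of 4 did. There the other cells were 1 T or NK cluster cell in each and 1 neutrophil cluster cell in the second. The Ly6C-high gate of that second sample held neutrophil markers at a summed level of 1165. The Ly6C-low gate of the brain was mixed. Cluster 3 held 22 of 33, 29 of 60, 12 of 19 and 12 of 28 of its cells, in the same sample order. Microglia made up 7, 21, 3 and 10 of them, and the T and NK cluster 4, 8, 4 and 5. The part of cell type in the Ly6c2 ratios of the brain was not tested. In the first CCR2-/- sample the ratio rested on 15 Ly6c2 counts in the Ly6C-high and 5 in the Ly6C-low gate.

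**Figure D2:**
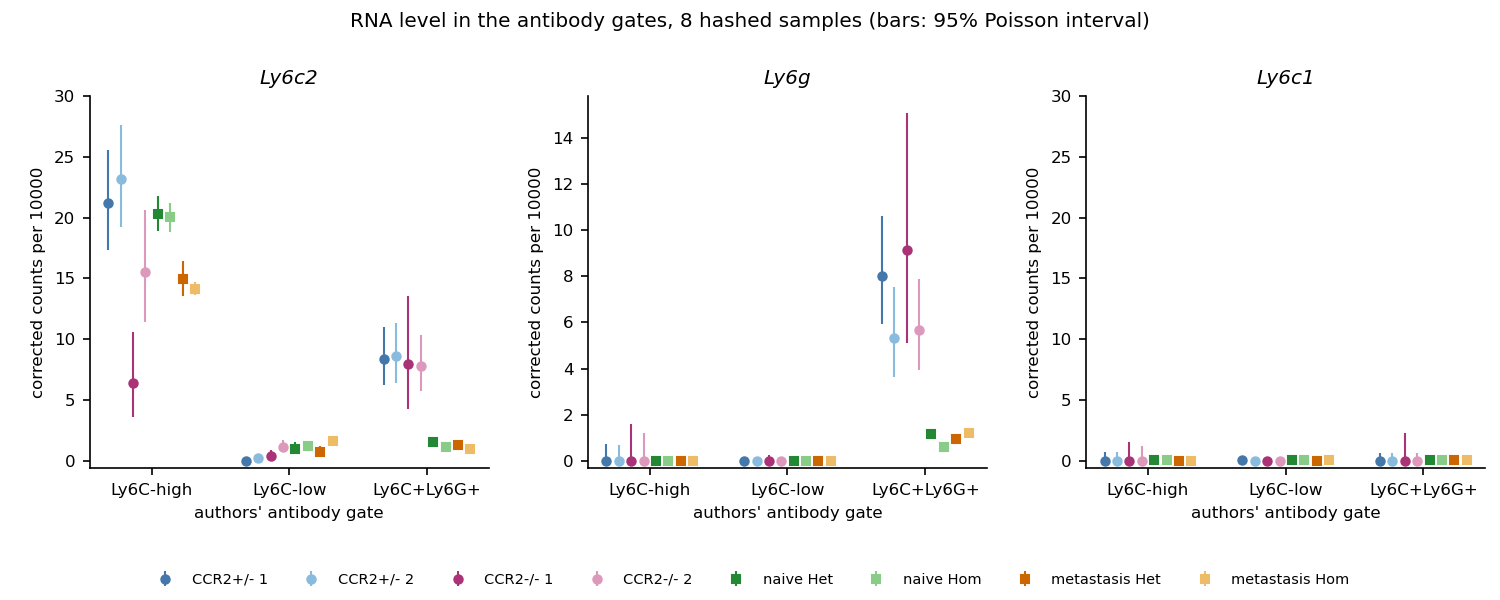
Level of Ly6c2, Ly6g and Ly6c1 in corrected counts per 10000 (vertical axis) in the Ly6C-high, Ly6C-low and Ly6C+Ly6G+ gates of the 8 hashed samples; circles are brain, squares blood, and bars exact Poisson intervals at 95%. Ly6c2 lies between 6.42 and 23.1 in the Ly6C-high gates and at most 1.60 in the Ly6C-low gates, Ly6g is seen in the Ly6C+Ly6G+ gates, and Ly6c1, drawn on the axis of Ly6c2, stays near 0 in all 3.

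Ly6c1, the other gene of the Ly6C antigen, was all but missing from the Ly6C-high gate. Its level there was 0 in all 4 brain samples and in metastasis Het blood, and 0.026, 0.055 and 0.015 in naive Het, naive Hom and metastasis Hom blood. B cells held Ly6c1 at 0.04 in both blood tables. The Ly6C-high gate lay below that level in all samples but naive Hom blood, where it was a little above. Ly6c2 in B cells, at 0.12 and 0.17, was far below its level in the gate.

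Over the cells of the 2 gates, most members with enough counts went past 2-fold in 1 direction or the other, as did many genes. Enough counts meant 20 or more in the gate where the level of the gene was higher. All genes of the background were held to the same rule. A gene could thus enter through its high side alone, and a gate with few cells admitted fewer genes. The counts of members past 2-fold are therefore descriptions. In naive Het blood 4 of the 5 members with 20 or more counts were past 2-fold, Ly6c2 higher and Ly6a, Ly6d and Ly6i lower in the Ly6C-high gate, against 20.1% of 2570 genes. In naive Hom blood 3 of 5 were past 2-fold against 21.2%, in metastasis Het blood 3 of 4 against 38.2%, in metastasis Hom blood 3 of 5 against 23.9%, and in the 4 brain samples together 3 of 4 against 29.7%, with Ly6c2 the 1 higher member in each. The gates also differed in cell type, and the Ly6C-low gate of blood was mixed: cells of the monocyte cluster made up 25 of 40, 39 of 91, 13 of 49 and 54 of 197 cells in naive Het, naive Hom, metastasis Het and metastasis Hom blood, and B cell markers summed to 9.8, 13.7, 21.5 and 25.3 there against 0.8, 1.2, 0.6 and 0.4 in the Ly6C-high gate, with 6, 7, 7 and 7 of the 7 markers detected in the Ly6C-low gates.

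Within the monocyte cluster alone, Ly6c2 still divided the gates. Its levels in the Ly6C-high and Ly6C-low gates were 21.3 and 0.821 in naive Het, 21.0 and 1.59 in naive Hom, 16.3 and 1.13 in metastasis Het and 14.8 and 3.21 in metastasis Hom blood. The log2 ratio of Ly6c2 was 4.56, 3.68, 3.66 and 2.19 in that order, so in metastasis Hom blood it was smaller within the cluster than over all gated cells. Of the members with 20 or more counts within the cluster, 2 of 3 were past 2-fold in naive Het (background 17.2%), 2 of 3 in naive Hom (14.7%) and 1 of 2 in metastasis Het blood (18.9%). In metastasis Hom blood Ly6c2 and Ly6a were past 2-fold of 3 members (10.1%). In cluster 3 of the 4 brain samples together, 1 of 4 such members was past 2-fold higher in the Ly6C-high gate and 2 were lower. The share of all genes is not given for that cluster, so this count is not read further. Over all gated cells of the brain the share was 29.7%.

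Lists of genes known for the monocyte classes, most of which also served as cluster markers, were first read over all gated cells. All 10 of the Ly6C-high side (Ccr2, F13a1 and others) were past 2-fold higher in the Ly6C-high gate of naive Het blood over all cells, 9 of 10 in naive Hom and metastasis Het and 8 of 10 in metastasis Hom blood, where 12.6%, 8.31%, 25.6% and 10.3% of all genes were. In the 4 brain samples together 10 of 10 were (6.22%). Of the Ly6C-low side (Nr4a1, Treml4, Ace and others), 8 of 10 and 7 of 10 were past 2-fold lower in the naive samples, but 1 of the 4 with enough counts in metastasis Het and 1 of 10 in metastasis Hom blood, against 7.47%, 12.9%, 12.6% and 13.7% of all genes. In brain 7 of 10 were (23.5%). Within the monocyte cluster, 10, 10, 8 and 6 of the 10 genes of the Ly6C-high side were past 2-fold higher in naive Het, naive Hom, metastasis Het and metastasis Hom blood (11.9%, 7.78%, 16.9% and 6.32% of all genes). Of the Ly6C-low side, 9 of 10, 9 of 9, 1 of 2 and 4 of 9 with enough counts were past 2-fold lower there (5.36%, 6.9%, 1.97% and 3.76%). In metastasis Hom blood the median log2 ratio of the Ly6C-low side was 0.31 over all gated cells and -0.93 within the cluster.

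The antibody gates and the RNA parted in some cells of the monocyte clusters, and in other clusters too, as given below. In metastasis Het blood 224 of the 322 monocyte cluster cells (69.6%, exact binomial 64.2 to 74.5%) stood in the NK1.1+ gate of the authors and 52 (16.1%) in the Ly6C-high gate, while in metastasis Hom blood 1 of 482 stood in the NK1.1+ gate and 387 (80.3%) in the Ly6C-high gate. The 224 NK1.1+ cells held Ly6c2 at 10.7 (10.1 to 11.3) and Ccr2, the receptor of classical monocytes, at 18.9. The NK cell genes Ncr1 and Klrb1c, of which Klrb1c encodes the NK1.1 antigen itself, were at 0.01 each, and Gzma was at 0.05. The median depth of these cells, 13093.5 UMIs, was close to that of the Ly6C-high cells of the same cluster (13717). Outside the monocyte cluster, the NK1.1+ gate of metastasis Het blood took 14 of 39 platelet and 25 of 800 neutrophil cluster cells. In metastasis Hom blood it took neither.

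Naive Het blood showed the like with CD3. There 51 of 175 monocyte cluster cells (29.1%) stood in the CD3+ gate, against 9 of 182 in naive Hom blood, and they held Ly6c2 at 8.03 (6.99 to 9.19), Ccr2 at 9.89, Ace, a gene of patrolling monocytes, at 4.51 and Ly6i at 1.63. The T cell genes Cd3e and Cd3g were at 0.04 and 0.15. Monocyte cluster cells in the B220+ gate, 18 in naive Het and 20 in naive Hom blood, held Ly6c2 at 1.98 and 8.30. In metastasis Hom blood 21 cells of the cluster stood in the Ly6C+Ly6G+ gate, with Ly6c2 at 4.85. In each blood sample these levels lay below the Ly6C-high gate of the same cluster. In naive blood CD3+ took 38 of 795 Het and 3 of 377 Hom neutrophil cluster cells. In the brain the T cell gate took 11 of 62 and 1 of 51 cluster 3 cells in the CCR2+/- samples. In the CCR2-/- samples it took 6 of 32 and 13 of 46. Neutrophil cluster cells in it were 2 of 9 in the first CCR2+/- and 8 of 17 in the second CCR2-/- sample. Neither other brain sample had any. Why cells fell into gates of other cell types was not tested, and the antibody counts themselves were not used here. Any count of cells in the Ly6C gates of metastasis Het blood leaves out most of its monocyte cluster.

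**Figure D3:**
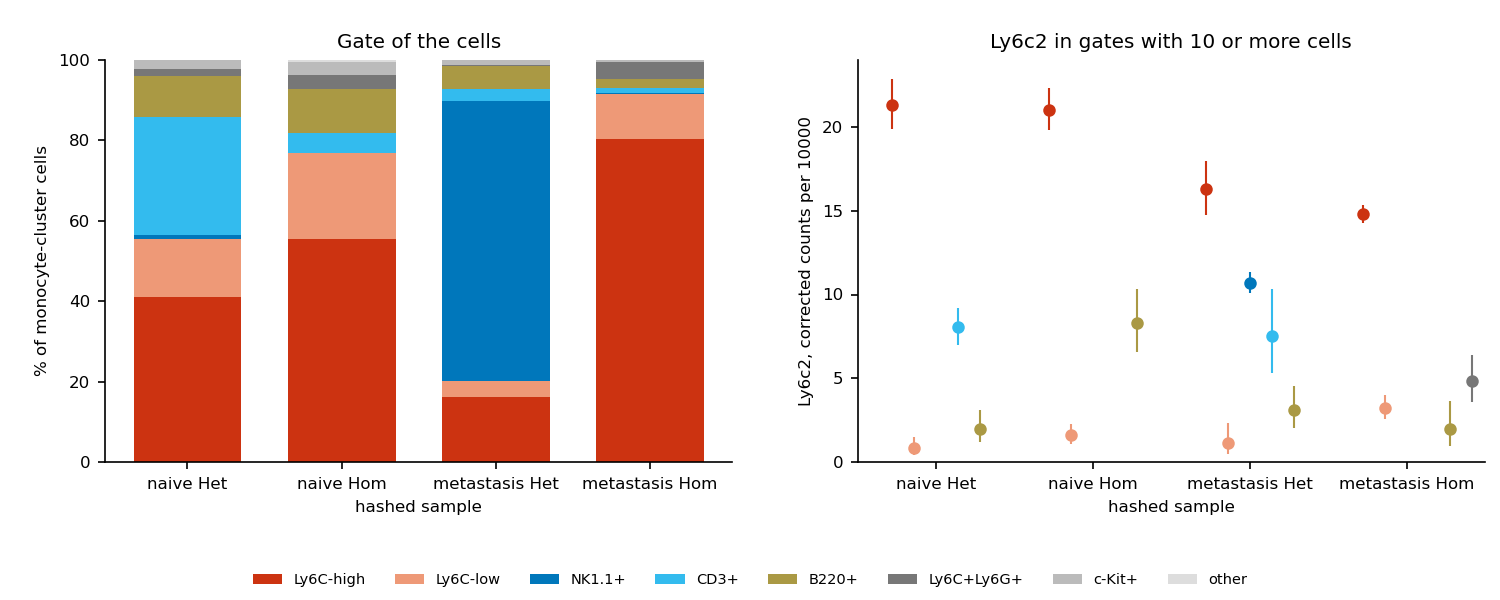
Left, share of the monocyte cluster cells of each blood sample (in %) in each authors' antibody gate; right, level of Ly6c2 in corrected counts per 10000 in those gates with 10 or more cells, with exact Poisson intervals at 95%. The NK1.1+ gate holds 69.6% of the cluster in metastasis Het blood, and its Ly6c2 of 10.7 lies between those of the Ly6C-high (16.3) and Ly6C-low (1.13) gates.

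Outside the gates, Ly6c2 was a gene of several lineages in blood. In naive blood its order by cluster was monocytes, at 11.9 in Het and 14.0 in Hom, then T and NK cells at 2.27 and 2.86, neutrophils at 1.52 and 1.09, the cluster of low RNA at 0.524 and 0.316, and B cells at 0.202 and 0.157. The samples did not overlap between these neighbours, and platelets, at 0.186 and 0, overlapped with B cells. In metastasis-bearing blood, monocytes were at 10.6 and 12.5 and the NK cell cluster, separate in that table, at 9.25 and 6.48, again without overlap, followed by T cells at 2.95 and 2.47, neutrophils at 1.24 and 0.827, the low RNA cluster at 0.523 and 0.372 and B cells at 0.128 and 0.096, which platelets (0.283 and 0) overlapped. In the brain, neutrophils held Ly6c2 at 8.04, 8.84, 7.92 and 5.01 (9, 8, 2 and 17 cells in the order CCR2+/- 1, CCR2+/- 2, CCR2-/- 1, CCR2-/- 2), above cluster 3 in each sample, and cluster 4 overlapped cluster 3.

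In blood T cells Ly6c1 lay with the CD4 class and Ly6c2 with the CD8 class. In CD4 cells of the T and NK clusters, helper cells by their antibody gate, Ly6c1 was at 0.733 and 1.29 in naive Het and Hom blood (56 and 109 cells) and at 1.96 and 0.916 in metastasis Het and Hom blood (50 and 49 cells). In CD8 cells, the cytotoxic class, Ly6c1 was at 0, 0.021, 0.079 and 0.044 in the same order (42, 91, 75 and 45 cells). Ly6c2 ran the other way, at 3.20, 2.71, 3.61 and 2.11 in CD8 cells and at 0.070, 0.125, 1.18 and 0.333 in CD4 cells. The 2 gates did not overlap for either gene in 4 of 4 samples. NK1.1 gated cells of the same clusters held Ly6c2 at 4.47, 6.70, 9.53 and 2.22 (9, 39, 33 and 11 cells) and Ly6c1 at 0.131 or less. The few cells outside the CD4 and CD8 gates were high in Ly6c2, with 8.48 in 15 naive blood cells gated on CD3 alone and 8.02 in 15 cells of metastasis-bearing blood gated as negative for CD4 and CD8. In the brain the T cell gate of cluster 4 held Ly6c2 at 2.15, 1.90, 4.52 and 6.04 (57, 5, 40 and 24 cells) and Ly6c1 at no more than 0.182.

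Brain endothelium was the 1 place of high Ly6c1. In cluster 6, which leads with Ly6c1 and other endothelial genes but also holds fibroblast and mural markers, Ly6c1 was at 27.4, 16.2, 26.7 and 28.9 in the 4 brain samples, in the order above, and Ly6a at 26.1, 17.8, 32.5 and 32.0. Ly6c2 was at 0.064 to 0.177 there. To see which cells carried them, the 301 cells were divided by the marker set that led in each, with at least 3 marker counts. Cells led by markers of barrier endothelium (66) held Ly6c1 at 36.7, 18.1, 54.9 and 46.6 and Ly6a at 40.01, 23.4, 48.1 and 45.5. Cells led by Plvap, a gene of leaky vessels (114), held Ly6c1 at 31.9, 26.0, 28.6 and 24.7 and Ly6a at 32.6, 29.0, 39.6 and 33.1. Barrier cells were higher than Plvap cells for both genes in 3 of 4 samples, the second CCR2+/- sample, with 7 barrier cells, being lower, and the levels of the 2 sub-groups overlapped. The 55 cells led by fibroblast markers held no Ly6c1 count in any sample, with Ly6a at 0.33 and Ly6e at 5.26. The 29 cells led by mural markers held Ly6c1 at 20.7, from 17 of the 29 cells, and also the endothelial genes Pecam1 at 4.45, Cldn5 at 5.26 and Plvap at 7.78, whereas cluster 7, the mural-like cluster, held 0.05. The 37 cells that no set led held Ly6c1 at 33.4.

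**Figure D4:**
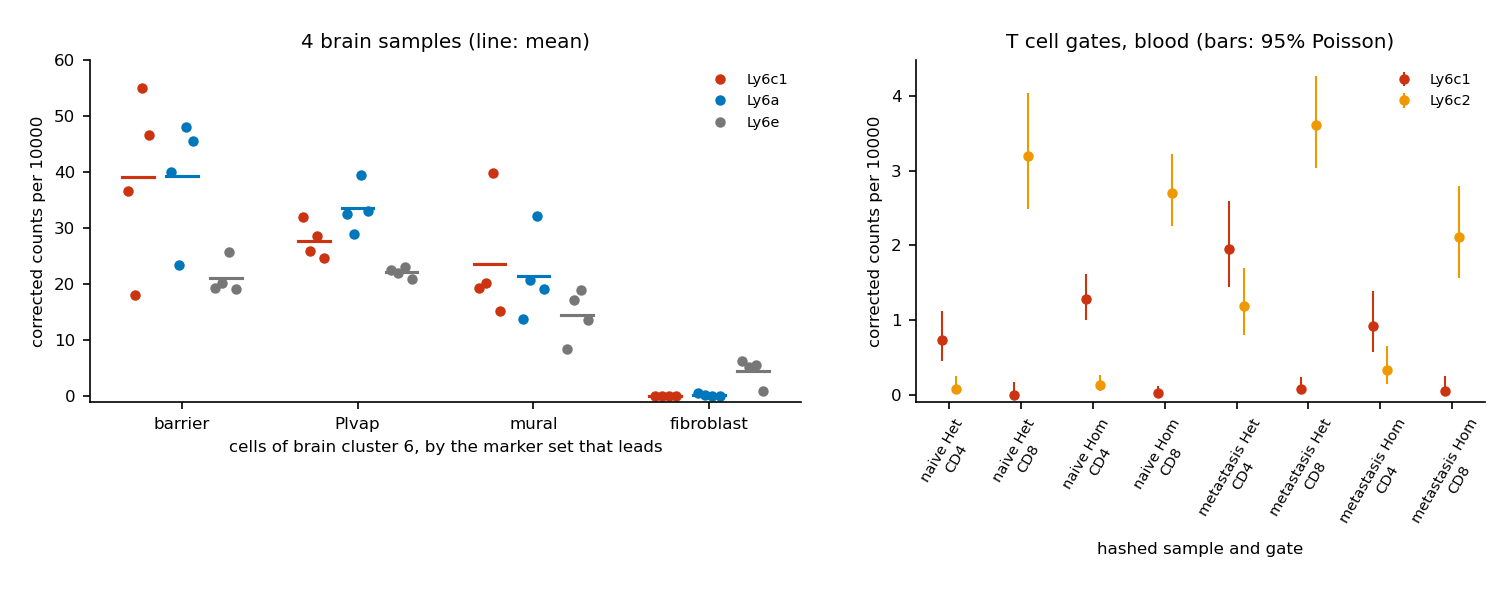
Left, levels of Ly6c1, Ly6a and Ly6e in corrected counts per 10000 in cells of brain cluster 6 divided by the marker set that leads in each cell, 1 point per brain sample and a line at the mean; right, levels of Ly6c1 and Ly6c2 in the CD4 and CD8 gates of the T and NK clusters of the 4 blood samples, with exact Poisson intervals at 95%. Fibroblast marker cells lack Ly6c1, and in blood Ly6c1 lies with CD4 cells and Ly6c2 with CD8 cells.

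Ly6g followed the Ly6G antibody. In the Ly6C+Ly6G+ gate it was at 8.03, 5.32, 9.14 and 5.67 in the brain samples (8, 8, 2 and 8 cells), at 1.15 and 0.607 in naive Het and Hom blood (742 and 371 cells) and at 0.933 and 1.21 in metastasis Het and Hom blood (773 and 815 cells). It was at 0 in the Ly6C-low gates of all 8 samples. The gate was made of neutrophils by RNA: 24 of 26 brain cells and 96.0 to 98.4% of blood cells lay in the neutrophil clusters, and all 9 neutrophil markers were detected in 7 of the 8 samples. Brain neutrophils were above blood neutrophils in every sample, for Ly6g as for Ly6c2, though the 2 tissues come from tables normalized separately. The brain neutrophil cluster, of 36 cells, was led by Camp, Ngp and Ltf and had 5 markers of dividing cells raised. Neither held for the blood neutrophil clusters, and the part of this in the difference was not tested. Ly6c2 in the Ly6C+Ly6G+ gate was at 7.78 to 8.58 in the brain and at 0.922 to 1.55 in blood. In B cells of blood Ly6g was at 0.01.

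Ly6i was a monocyte gene whose side of the Ly6C division was opposite to that of Ly6c2 in naive blood. Within the monocyte cluster it was at 2.79 in the Ly6C-low and 0.675 in the Ly6C-high gate of naive Het blood, a log2 ratio of high over low of -2.03 (-2.86 to -1.26), and at 3.39 and 0.821 in naive Hom blood (-2.03, -2.64 to -1.47). In metastasis Hom blood the Ly6i levels were 0.718 and 0.415 (-0.85, -1.53 to 0.013), an interval that reaches 0, and in metastasis Het blood Ly6i was at 0 in 13 Ly6C-low cells and at 0.396 in 52 Ly6C-high cells. Over all gated cells, where the Ly6C-low gate holds B and other cells, the order held in naive blood (log2 ratio of Ly6i -1.50 and -0.97) and turned in metastasis Hom blood (0.82). Over the whole monocyte cluster Ly6i was at 1.34 and 1.47 in naive Het and Hom and at 0.498 and 0.515 in metastasis Het and Hom blood. The naive and metastasis-bearing samples were 1 of each genotype label and their tables were normalized apart. On 845 barcodes found in both tables, the Ly6i level differed by 0.05 on the log2 scale. These barcodes are not among the clear cells, and held Ly6i at 0.204 and 0.212, below the monocyte clusters. The part of normalization in the Ly6i difference was not tested.

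Ly6d and Ly6a were genes of lymphocytes in blood, and Ly6e did not divide the Ly6C gates. Ly6d, at 28.3 to 47.2 in brain B cells, 30.1 and 29.3 in naive Het and Hom and 20.6 and 22.2 in metastasis Het and Hom blood B cells, was among the 10 leading genes of the B cell clusters. Ly6a in B cells was at 4.04, 3.76, 3.60 and 4.79 in the 4 blood samples, above T cells in each, and CD4 cells held 1.87 in naive and 3.21 in metastasis-bearing blood against 0.28 and 0.76 in CD8 cells. Between the Ly6C gates of blood, Ly6a was lower in the Ly6C-high gate by 3.28, 2.95, 4.87 and 4.93 and Ly6d by 3.75, 3.26, 2.66 and 6.47 on the log2 scale, in the order naive Het, naive Hom, metastasis Het and metastasis Hom. With all deposited cells in place of the clear ones, Ly6a in naive Het blood turned to 0.44. These 2 genes moved with the B cell markers of the Ly6C-low gate given above, whose part in the difference was not tested. Ly6e differed by 0.04, 0.38, -0.01 and 0.25, less than 2-fold in each.

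The genes whose levels ran most like those of the members were sought over the clusters by sample with 20 or more cells, 20 in brain, 12 in naive blood and 13 in metastasis-bearing blood, as a description: these points share libraries and depth. Ly6c2 was closest to Iqgap2 in brain (Pearson r = 0.943) and naive blood (0.975) and to Fam105a in metastasis-bearing blood (0.986). In brain the RFP transcript, a red fluorescent reporter in the tables, ran nearly as close to Ly6c2 (0.936). Ly6c1 was closest to Ccm2l in brain (0.999), Ly6a to Aplp2 (0.982) and Ly6i to Rpl3l (0.968). Ly6g was closest to BC005537 in brain (0.882), Ankrd22 in naive (0.997) and Tnfaip6 in metastasis-bearing blood (0.999). Ly6d ran with Cd79a, part of the B cell receptor, in both blood tables (0.987 and 0.991). Ly6e was closest to Fkbp1a in brain (0.930).

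Of 34 other genes of the Ly6 and uPAR family that were listed by name, 17, 15 and 17 were in the brain, naive and metastasis tables, and 10, 9 and 8 of them had 20 or more counts. Gpihbp1, which carries lipoprotein lipase on capillaries, was at 1.58 in the brain endothelium cluster. Cd177, a neutrophil surface protein, was at 7.87 in brain neutrophils and at 0.90 and 1.99 in the monocyte clusters of naive and metastasis-bearing blood. Plaur, the urokinase receptor, was at 6.50 in brain neutrophils, and Ly6g6c at 1.75 and 1.54 in the platelet clusters of blood. None of the listed genes tested for the CCR2 genotype in brain, 5 in microglia, 4 in endothelium and 1 in each of clusters 0, 3 and 4, passed the adjusted threshold of limma.

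The CCR2 genotype of the brain samples was compared in the 5 clusters with at least 20 cells in each of the 4 samples, with limma across all genes of 20 or more counts. Ccr2, the targeted gene, was at 2.66 and 3.16 in the CCR2+/- and 0.290 and 0.470 in the CCR2-/- samples of cluster 3, a log2 difference of -2.87 (limma adjusted p = 0.00155). Where the 3' reads of Ccr2 lie relative to the deleted part is not given in the sources used here. None of the members passed the adjusted threshold of 0.05 in any cluster, out of 5, 5, 5, 4 and 4 members tested in clusters 0, 1, 3, 4 and 6, where 0.101%, 0.485%, 0.229%, 0.0141% and 0.137% of all genes tested passed by limma and 545, 952, 585, 260 and 736 genes had an unadjusted p under 0.05. The levels of the 2 genotypes did not overlap for 3, 1, 4, 2 and 2 of these members, against 34.3%, 38%, 37.8%, 32% and 37.4% of all genes tested.

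Cluster 3 of the brain held markers of border macrophages and of both monocyte classes. It was led by Mgl2, H2-Eb1, H2-Ab1, H2-Aa and Cd209a, the last a dendritic cell marker. The part of dendritic cells in the levels of the members was not tested. In this cluster Ly6i was at 0.022 and 0 in the CCR2+/- and 0.912 and 0.265 in the CCR2-/- samples, from 32 counts in all. Its log2 difference was 3.80 (SE 0.84, limma adjusted p = 0.125). Ly6c2 was at 3.56 and 4.73 in the CCR2+/- and 2.11 and 2.68 in the CCR2-/- samples, a difference of -0.77 (SE 0.23, limma adjusted p = 0.298). Ly6a was at 1.54 and 0.186 against 1.78 and 2.59, and its difference of 1.91 (SE 0.63, limma adjusted p = 0.393) came with a low level in the second CCR2+/- sample alone. Ly6e was at 9.25 and 6.67 against 11.98 and 11.8 (limma adjusted p = 0.364), and Ly6d overlapped. The genotypes did not overlap for Ly6i, Ly6c2, Ly6a and Ly6e, yet none was called with all 4 samples.

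The monocyte lists gave the setting of these values in cluster 3. Of the 10 genes of the Ly6C-low side, 5 rose in CCR2-/- (Itgal, Eno3, Ace, Cd300e and Adgre4), as did 0.186% of all genes tested. The 10 did not overlap between genotypes, nor did 37.8% of all genes tested. Of the 10, Cx3cr1 alone lay lower in CCR2-/- (log2 -0.32). Their median log2 difference was 2.64 against 0.083 over all genes tested. Of the Ly6C-high side, Ccr2 fell, as did 0.043% of all genes, and Plac8 rose, with a median of -0.41. Markers of Ly6c-low monocytes, with 8, 4, 8 and 8 of 8 detected, summed to 7.4, 4.4, 19.5 and 16.3 in the 4 samples, those of Ly6c-high monocytes to 13.5, 14.8, 7.0 and 9.1 and those of border macrophages to 27.6, 15.9, 10.8 and 14.4. Treml4, Ace, Cd300e and Eno3 were at 0 in the second CCR2+/- sample. The Ly6c-high marker list holds Ccr2, the targeted gene, and shares F13a1 with the border macrophage list. F13a1 was at 4.28, 3.43, 0.912 and 2.06 in the 4 samples. These sums are therefore not independent of the genotype or of each other. Whether the values of Ly6i and Ly6c2 follow from the mix of cells in the cluster was not tested. Within the Ly6C-low gate Ly6i was at 0.042, 0, 1.09 and 0.048, high in the first CCR2-/- sample alone.

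The differences of members in cluster 3 depended on which samples were fitted. The log2 difference of Ly6i was 4.22 without the first CCR2+/-, 3.39 without the second CCR2+/- and 4.64 without the second CCR2-/- sample. Without the first CCR2-/- sample it was 2.96. For Ly6a it was 3.35 without the first CCR2+/-, 2.18 without the first CCR2-/- and 1.65 without the second CCR2-/- sample. Without the second CCR2+/- sample the Ly6a difference was 0.48. With each sample left out in turn, Ly6d ran from -0.36 to 1.80 and Ly6c2 from -0.98 to -0.57. In these fits 1 genotype has a lone sample, assumed to vary like the pair of the other, so only the differences are given. With all 4 samples and no filter on counts, limma called Ly6i (adjusted p = 0.00224) and Ly6a (adjusted p = 0.0097). Without the filter it also called more genes of the cluster in all than the main fit, as given below.

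In cluster 4, of T and NK cells, Ly6c2 was at 1.89 and 0.638 in the CCR2+/- and 3.94 and 3.52 in the CCR2-/- samples, a log2 difference of 1.74 (SE 0.40, limma adjusted p = 0.989). NK cell markers summed to 24.5, 58.1, 32.6 and 72.3 there. The T cell gate held 57 of 86, 5 of 31, 40 of 64 and 24 of 67 cells of the cluster, fewest in the second CCR2+/- sample. The part of the mix of T and NK cells in the Ly6c2 difference was not tested. With a sample left out, the Ly6c2 difference ran from 0.97, without the second CCR2+/- sample, to 2.50, without the first. In cluster 6, of endothelium, Ly6a was at 26.1 and 17.8 against 32.5 and 32.0 (0.58, SE 0.21, limma adjusted p = 0.534), Ly6c1 overlapped (0.39, SE 0.24, limma adjusted p = 0.735), and Ly6e was at 14.9 and 15.002 against 20.9 and 17.5 (0.35, SE 0.17, limma adjusted p = 0.663). The second CCR2+/- sample, lowest for Ly6c1 and Ly6a, had the highest summed fibroblast markers, 38.4 against 10.0, 14.7 and 4.9, with all 6 of the 6 markers detected in each sample, and the part of this in the difference was not tested. Without the first CCR2+/- sample the log2 differences were 0.85 for Ly6a and 0.77 for Ly6c1. Without the second CCR2+/- sample the differences were 0.30 for Ly6a and 0.014 for Ly6c1.

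**Figure D5:**
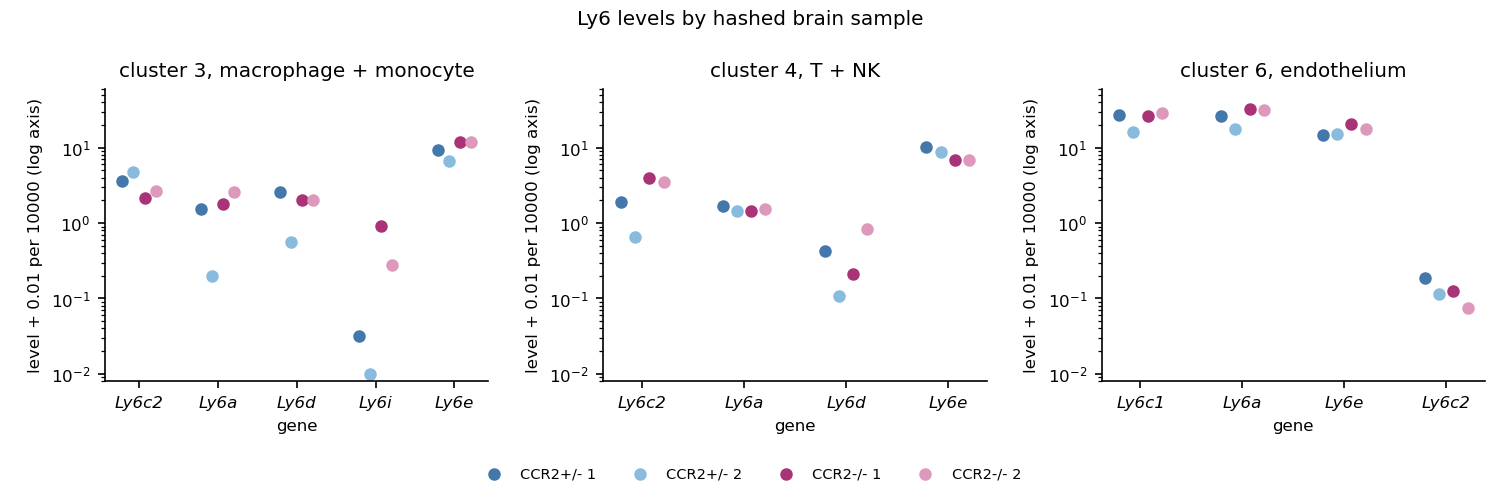
Level of the tested Ly6 genes in brain clusters 3, 4 and 6, in corrected counts per 10000 + 0.01 on a log axis, 1 point for each of the 4 brain samples. In cluster 3 both CCR2-/- samples lie above both CCR2+/- samples for Ly6i and below them for Ly6c2. No member passed the adjusted threshold in the main fit.

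In blood, Hom and Het were set side by side in each cluster as 1 sample each. Ly6c2 in the monocyte cluster was higher in Hom by 0.24 on the log2 scale in naive and by 0.24 in metastasis-bearing blood. In naive monocytes Ly6a was the 1 member of 5 past 2-fold (0.381 in Het, 0.808 in Hom, against a background of 3.67%), and in metastasis-bearing monocytes none of 5 was (2.29%). In naive neutrophils Ly6g was the 1 member of 6 past 2-fold (1.23 in Het, 0.593 in Hom, log2 -1.04, background 8.34%), and in metastasis-bearing neutrophils, where Ly6g was at 0.948 and 1.24, none of 7 was (3.01%). In the naive T and NK cluster Ly6a (1.76 and 0.846) and Ly6d (1.49 and 0.522) were past 2-fold lower in Hom of 5 members (2.76%). In T cells of metastasis-bearing blood Ly6c1 (0.748 and 0.350) and Ly6d (1.099 and 0.289) were past 2-fold lower in Hom of 5 members (2.85%). B cell markers, 7 of 7 detected, summed to 7.1 in Het and 3.0 in Hom in the naive cluster and to 6.2 and 2.2 in the metastasis-bearing one, and moved with Ly6d; their part was not tested. In the low RNA cluster of naive blood Ly6c1 and Ly6a were past 2-fold higher in Hom, 2 of 5 members against 14.2% of genes, and with all deposited cells both were lower (-1.22 and -0.47 on the log2 scale). In B cells (4 members in each table, 1.26% and 1.92%), naive platelets (2 members, 7.89%), the low RNA cluster (4 members, 18.1%) and NK cells (2 members, 6.9%) of metastasis-bearing blood, 0 members with 20 or more counts went past 2-fold.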

How the data were processed

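Per the labels, 8 hashed samples were pooled and made into 1 mRNA, 1 antibody and 1 hashtag library; the submitters' processing notes name Cell Ranger 3.1 and mm10. The authors deposited, for each of 3 tables, natural log (ln) values of 1 plus a depth-corrected count per gene and cell, and beside them the RNA count per cell and cell columns of other kinds (cluster, hashtag class, antibody gate). Each deposited ln value gave back a whole number. The normalization, gating and clustering settings are not given in the sources used here.

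Clear cells (barcode in 1 table, own hashtag share of at least 0.5) were summed by sample and cluster or gate with Python 3.11.15, numpy 2.4.6, pandas 2.3.3 and scipy 1.17.1. Brain genotypes were fitted with limma 3.58.1 (R 4.3.3; lmFit, eBayes with trend) on log2(scaled sum + 1), over genes with 20 or more counts, with Benjamini-Hochberg adjustment at 0.05; the script was tested on simulated data. The corrected values are not raw counts, so no count model was used. Blood ratios have a pseudocount of 1 count and a limit of 2-fold. For ratios of gates or of blood samples, the 20 counts were asked of the group where the level was higher. Promoters were aligned with Biopython 1.88. Poisson and binomial intervals are exact at 95%, and the floor is 3 counts.

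Named genes were the 7 members, the rest of the family list, the 20 monocyte genes and, for each member, the 3 genes most correlated with it, of which the closest are given. Members, gene lists and tests were chosen with earlier results of these data known. The brain sub-groups by marker set were made for this description. Alternatives were all deposited cells, a hashtag share of 0.8, a pseudocount of 0.5, no gene filter, median-ratio size factors, thinning to 1000 counts per cell, the monocyte cluster alone, and each brain sample left out.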

Additional observations from a re-analysis of the deposited data

Results flagged for a closer look

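In naive blood the neutrophil cluster held less Ly6g in Hom than in Het (log2 -1.04, Poisson interval -1.39 to -0.73), and in metastasis-bearing blood it held more (0.39). With 1 sample in each group the samples move in opposite ways, and the difference was not tested. Neutrophil markers, 9 of 9 detected in each sample, summed to 2462 in Het and 1831 in Hom in naive blood and to 2155 and 1904 in metastasis-bearing blood. In the low RNA clusters Ly6e was higher in Hom in naive blood (0.16) and lower in metastasis-bearing blood (-0.38), and that difference was not tested either.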

How the results depend on the processing

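Of 216 values of Hom over Het in blood, recomputed under the alternatives for 54 results, 192 moved by less than the counting interval, 22 by more and 2 turned: in the low RNA cluster of naive blood, with all deposited cells, Ly6c1 went to -1.22 and Ly6a to -0.47. Of 95 values for the gates of blood 63 moved by less than the interval, 31 by more and 1 turned, Ly6a in naive Het blood with all deposited cells (0.44). The Ly6c2 ratio of metastasis Hom gates went from 3.13 to 3.44 with all deposited cells, 2.86 after thinning and 2.19 in the monocyte cluster, and the Hom over Het Ly6c2 of naive monocytes from 0.24 to 0.11 with all deposited cells. The mean Ly6c2 ratio of the brain gates lay between 4.79 and 6.55 with each sample left out.

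Counts of genes called in the brain depended on the cells, filters and samples used. Cluster 0 (10 called) gave 0 with all deposited cells, 5 at the stricter hashtag share, 5 with no gene filter, 0 after thinning and 0 to 32 with a sample left out. Cluster 1 (52) gave 88, 94, 0 and 30 to 125 at the stricter share, with no filter, after thinning and with a sample left out. Cluster 3 (16) gave 10 with the smaller pseudocount, 80 with no filter, 1 after thinning and 37 to 287 with a sample left out. Cluster 4 (1) gave 0 with all deposited cells, 4 at the stricter share, 0 with no filter, 0 after thinning and 0 to 5 with a sample left out. Cluster 6 (13) gave 0 at the stricter share, 6 after thinning and 0 to 218 with a sample left out. The cause of these shifts was not tested.

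Of 220 values of members in the brain, 190 kept direction and side of the threshold, 12 passed it and 18 turned. Most that passed came from fits with a sample left out, and no turned value was called. Cluster 0: Ly6a -0.0048 with all cells and -0.22 at the stricter share, Ly6c1 0.079 at that share, Ly6e 0.033 with median-ratio factors. Cluster 1: Ly6d 0.0012 with those factors and Ly6e -0.052 after thinning. Cluster 4: Ly6a 0.44 with all cells. With a sample left out, the range crossed 0 in cluster 0 for Ly6e (-0.029 to 0.013) and Ly6c2 (-1.07 to 0.025), in cluster 1 for Ly6d (-0.22 to 0.14), Ly6c2 (-0.17 to 0.64) and Ly6a (-0.76 to 0.13), in cluster 3 for Ly6d (-0.36 to 1.80) and in cluster 4 for Ly6a (-0.17 to 0.073) and Ly6d (-0.047 to 1.87).

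No paired analysis was possible because the numbers of the brain samples do not link CCR2+/- and CCR2-/- suspensions and each blood group is 1 sample. For the brain gates, with no fit made, no sample block, no gene filter and size factors were not run. Depth limits the brain gates, with 3 to 7 Ly6C-high cells per sample, and Ly6i, with 32 counts in cluster 3.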
